A study of Mus musculus with 22 samples.

Results

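The genes of the proteasome were followed in RNA-seq of whole testes from mice with and without MLX. Members were the rows of the testes count table whose symbol is Psma, Psmb, Psmc or Psmd with a number, Psme or Psmg with 1 digit, or *Psmf1*, which gave 48 of the 17931 gene symbols. The 6 libraries came from 3 WT males (WT1, WT2 and WT3), which were proven breeders, and 3 *Mlx* knockout males (KO1, KO2 and KO3), all aged 7 months and untreated, in 3 pairs of age-matched littermates. The knockout allele was made in 129S4 embryonic stem cells and lacks, in every tissue, the exons that encode the DNA-binding and dimerization domain, and the Meox2-Cre used to delete them was bred out. The study kept 2 lines from separate stem cell clones and does not say which of them was sequenced. The comparison asks how the testis transcriptome differs when MLX is lost. *Mlx* itself does not check the labels: its LFC was -0.18 (SE 0.14, adjusted p = 0.326, edgeR's quasi-likelihood test). The allele keeps other exons of *Mlx*, but reads were not split by exon, and why its counts differed so little was not tested. MLX is a transcription factor that pairs with MNT, MXD or MondoA and ChREBP proteins and binds the E-box CACGTG.

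The proteasome degrades proteins tagged with ubiquitin. Its 20S core is a barrel of alpha subunits (Psma genes), which form the outer rings and the gate, and beta subunits (Psmb genes), which form the inner rings and include the proteolytic subunits *Psmb5*, *Psmb6* and *Psmb7*. The 19S regulator caps the barrel, with ATPase subunits (Psmc genes) that unfold substrates and non-ATPase subunits (Psmd genes) that bind and release ubiquitin. Interferon-γ and immune cells replace the proteolytic subunits by *Psmb8*, *Psmb9* and *Psmb10*, which makes the immunoproteasome, and induce the PA28 activator subunits *Psme1* and *Psme2*. Male germ cells instead use the alpha subunit *Psma8* in place of *Psma7*, and the activator PA200 (*Psme4*), which is linked to histone removal in spermatids. The remaining members are the nuclear PA28 subunit *Psme3*, the inhibitor and adaptor PI31 (*Psmf1*), the assembly chaperones of the core (*Psmg1* to *Psmg4*) and of the regulator (*Psmd5*, *Psmd9* and *Psmd10*), and the thymus subunit *Psmb11*.

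The promoters of the 3 immunoproteasome genes are shown because these genes rose together, and so that the letters bound by MLX and by the interferon pathway can be read in them. Each sequence is the 250 bases before the RefSeq gene start on GRCm38.p6 (the build also called mm10), 5′ to 3′ on the strand of the gene, and the capitals mark a match to 1 of 4 motifs searched on both strands. The motifs were the E-box CACGTG, the interferon-stimulated response element (GAAA, any 2 bases, GAAA), the gamma-activated site TTCNNNGAA and the antioxidant response element TGACNNNGC, to which the proteasome gene regulators *Nfe2l1* and *Nfe2l2* bind. *Psmb8* (chr17:34197945-34198194, plus strand) held a gamma-activated site, *Psmb10* (chr8:105938393-105938642, minus strand) an E-box, and *Psmb9* (chr17:34187331-34187580, minus strand) none of the 4.
*Psmb8*: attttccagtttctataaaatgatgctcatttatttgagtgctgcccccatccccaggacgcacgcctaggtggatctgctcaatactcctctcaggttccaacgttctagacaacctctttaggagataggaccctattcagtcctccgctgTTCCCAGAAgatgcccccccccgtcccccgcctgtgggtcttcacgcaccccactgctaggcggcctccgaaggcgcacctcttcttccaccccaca
*Psmb9*: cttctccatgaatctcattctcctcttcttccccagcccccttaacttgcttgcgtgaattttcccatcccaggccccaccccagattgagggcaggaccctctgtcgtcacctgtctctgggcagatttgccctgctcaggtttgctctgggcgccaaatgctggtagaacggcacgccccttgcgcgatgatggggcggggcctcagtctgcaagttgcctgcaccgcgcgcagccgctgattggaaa
*Psmb10*: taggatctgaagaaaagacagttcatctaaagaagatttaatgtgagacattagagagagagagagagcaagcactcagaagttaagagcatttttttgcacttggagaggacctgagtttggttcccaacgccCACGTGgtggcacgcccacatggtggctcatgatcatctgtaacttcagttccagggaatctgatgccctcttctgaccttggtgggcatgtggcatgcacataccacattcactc

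Of the 48 members, 40 had a promoter in the RefSeq table used, and 4 of these 40 (10.0%) held the E-box against 6.86% of 27025 genes. Besides *Psmb10* these were the alpha subunit gene *Psma4* (chr9:54950699-54950744, plus strand), the chaperone gene *Psmd9* (chr5:123228119-123228164, plus strand) and the activator gene *Psme3* (chr11:101316149-101316194, plus strand), and they are shown with up to 20 bases on each side of the motif. The first base of the E-box lay 140, 51 and 44 bases before the start used for each promoter, and 116 for *Psmb10*. For *Psma4* that start is inside the gene, whose RefSeq start is 54950781, so its E-box lies nearer to the gene start than 140 bases.
*Psma4*: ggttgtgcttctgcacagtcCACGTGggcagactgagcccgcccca
*Psmd9*: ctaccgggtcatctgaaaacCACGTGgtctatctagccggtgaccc
*Psme3*: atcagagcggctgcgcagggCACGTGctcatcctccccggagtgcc

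The antioxidant response element was found in 5 of the 40 (12.5%, against 11.5% of genes). Among them were the proteolytic subunits *Psmb5* (chr14:54618014-54618062, minus strand) and *Psmb6* (chr11:70525328-70525356, plus strand). It lay 47 and 9 bases before the start used for each promoter. For *Psmb6* that start is inside the gene, whose RefSeq start is 70525324, so the stretch shown lies within the gene. Both stretches are shown with the element in capitals.
*Psmb5*: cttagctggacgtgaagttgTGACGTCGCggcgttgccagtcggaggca
*Psmb6*: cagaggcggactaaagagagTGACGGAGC
The interferon-stimulated response element was found in 3 of the 40 (7.50%, against 3.46% of genes), namely *Psmb3*, *Psmd4* and *Psmd9*, and the gamma-activated site in 2 (5.0%, against 8.13%), namely *Psmb8* and *Psmg1*. No motif was searched for beyond these windows, and a match in letters is not a site of binding.

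Loss of MLX went with higher RNA of the immunoproteasome genes and of the interferon-induced PA28 genes *Psme1* and *Psme2*, slightly higher RNA of some core subunits, and lower RNA of the testis subunits, the nuclear PA28 gene *Psme3*, PI31 and some of the most abundant 19S genes. Of the 48 members, 47 passed the filter on low counts, and 11 were higher and 10 lower in KO testes at an adjusted p of at most 0.05 (edgeR's quasi-likelihood test, Benjamini-Hochberg adjustment over 14640 genes). Across all genes tested, 45.4% were called, 24.8% as higher and 20.6% as lower, so that the members' shares were close to those of all genes. The LFC (log2 fold change, KO over WT) of the members had a median of 0.02, and of all genes 0.03. The CPM (counts divided by the TMM-scaled library size) of every KO library lay above every WT library for 15 members and below for 12, where 30.3% and 25.9% of all genes did so. DESeq2 gave 7 higher members without a block on littermates and 4 with it, whereas edgeR gave 11 with or without that block. Without TMM, by library size alone, 21 were higher and 3 lower, and over all genes the share of calls that were higher rose from 54.7% to 80.8%.

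**Figure D1:**
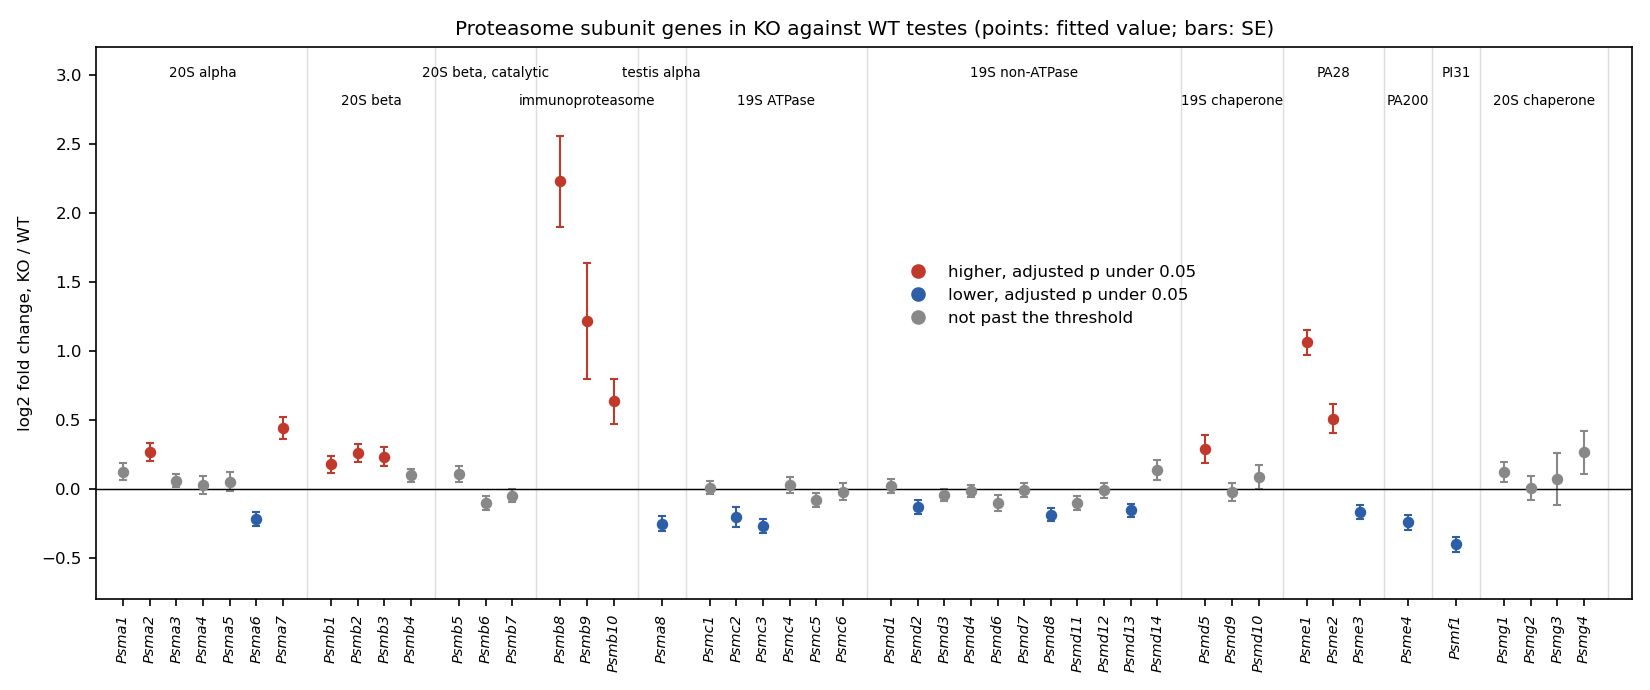
LFC (KO over WT, vertical axis, log2) of the 47 members tested, grouped by role along the horizontal axis, as fitted values with their SE; red points were called higher, blue points lower and grey points neither at an adjusted p of at most 0.05. The 3 immunoproteasome genes and *Psme1* stand above all other members, and the blue points lie between -0.40 and -0.13.

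The libraries held 16674678 to 19742726 counts, of which 0.576 to 0.590% fell on the members, and TMM factors were 0.943 to 0.961 in WT and 1.02 to 1.07 in KO. KO1 stood between the genotypes: its counts differed from those of the WT libraries by a chi-square per degree of freedom of 18.4 to 19.6, against 33.3 to 35.9 for KO2 and KO3. From KO2 and KO3 it differed by 8.25 to 8.26. Without KO1, 11 members were higher and 13 lower, and without WT2 or KO2 8 were higher and 6 lower. The tissue label held, with spermatid and Sertoli cell markers at high levels in every library. Summed CPM of 10 elongating spermatid markers was 27478 to 28468 in WT and 16942 to 20405 in KO testes, and of 8 Leydig cell markers 827 to 855 and 1839 to 2385. All 10 elongating spermatid markers, 8 of 8 round spermatid and 8 of 10 spermatocyte markers were lower and all 10 Sertoli and all 8 Leydig markers higher. Other lists were mixed: of 8 spermatogonia markers 2 were higher and 1 lower, and of 7 endothelial markers 3 were higher. Of 6 peritubular myoid markers 4 were higher and 1 lower, with sums of 310 to 369 CPM in WT and 309 to 325 in KO libraries. In whole testes, fewer cells of a type and less RNA per cell cannot be told apart.

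The 3 immunoproteasome genes rose in KO testes. *Psmb8* (β5i, the inducible counterpart of *Psmb5*) had 13, 9 and 12 counts in WT1 to WT3 and 86, 46 and 41 in KO1 to KO3. That is 0.685, 0.572 and 0.677 CPM in WT1 to WT3 and 4.44, 2.54 and 2.17 CPM in KO1 to KO3. Every KO library exceeded every WT library, with KO1 the highest. The fitted difference between the genotypes was 4.68-fold (LFC 2.23, SE 0.33, adjusted p = 0.000363). *Psmb9* (β1i, counterpart of *Psmb6*) had only 12, 7 and 10 counts in WT1 to WT3 and 41, 14 and 18 in KO1 to KO3, or 0.633, 0.445 and 0.564 CPM in WT1 to WT3 and 2.11, 0.774 and 0.953 CPM in KO1 to KO3. KO1 again stood far above the others, and KO2 and KO3 were just above the WT range (LFC 1.21, SE 0.42, adjusted p = 0.0352). *Psmb10* (β2i, counterpart of *Psmb7*) was at 2.79, 2.73 and 3.04 CPM in WT1 to WT3 and 4.95, 4.54 and 3.81 CPM in KO1 to KO3. Every KO library lay above every WT library, with KO3 nearest to the WT range (LFC 0.63, SE 0.17, adjusted p = 0.00950).

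The calls of these 3 genes did not rest equally on each library. Without KO1 the LFC of *Psmb8* was 1.85 (adjusted p = 0.000221) and that of *Psmb9* 0.64 (adjusted p = 0.161). The call of *Psmb9* was also lost without WT1, WT2 or WT3 (adjusted p = 0.0633, 0.109 and 0.0761) and with DESeq2 (0.0714). Blocking on littermates in DESeq2, *Psmb9* (adjusted p = 0.190) and *Psmb10* (adjusted p = 0.139) were not called, whereas the block in edgeR kept both (adjusted p = 0.0104 and 0.0107). *Psmb8* was called higher in the main test and in all 14 alternatives.

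Their constitutive counterparts did not pass the test. *Psmb5* (chymotrypsin-like activity) was at 51.7, 56.8 and 54.5 CPM in WT1 to WT3 and 59.0, 60.8 and 55.3 CPM in KO1 to KO3, and the groups overlapped (LFC 0.10, SE 0.06, adjusted p = 0.170). *Psmb6* (caspase-like activity) was at 114, 125 and 123 CPM in WT1 to WT3 and 117, 109 and 111 CPM in KO1 to KO3, also overlapping (LFC -0.10, SE 0.05, adjusted p = 0.135; lower without KO1, adjusted p = 0.0408). *Psmb7* (trypsin-like activity) was at 116, 115 and 111 CPM in WT1 to WT3 and 114, 109 and 108 CPM in KO1 to KO3 and overlapped as well (LFC -0.05, SE 0.05, adjusted p = 0.410). Of the exon bases of *Psmb7*, 405 overlap *Nek6* on the opposite strand, and all 3 genes have annotated pseudogene copies, so some of their reads may belong elsewhere. The 3 inducible genes together made up 1.25 to 1.47% of the counts on all 6 proteolytic subunit genes in WT and 2.47 to 3.81% in KO libraries, so they remained a small part of this RNA in both genotypes. Per exon length, *Psmb8* reached 0.658% ± 0.0912 of *Psmb5* in WT and 2.88% ± 1.11 in KO testes (SD, n = 3), and *Psmb10* 2.22% ± 0.186 and 3.56% ± 0.372 of *Psmb7*. The remaining pair, *Psmb9* to *Psmb6*, went from 0.270% ± 0.0583 to 0.665% ± 0.350.

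**Figure D2:**
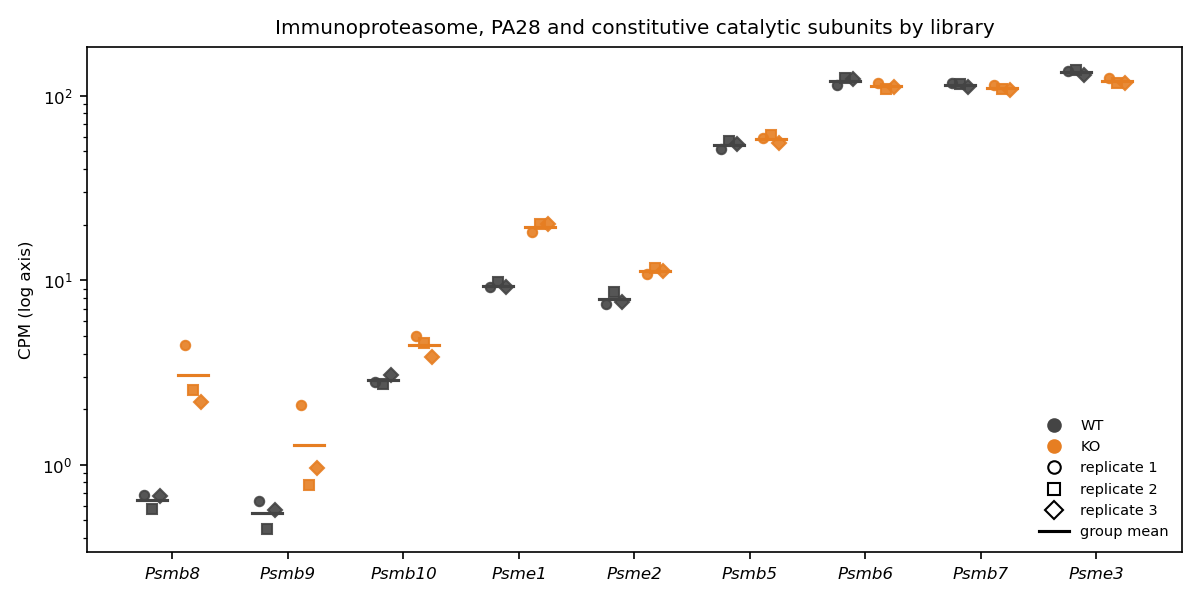
CPM (log axis) in each of the 6 libraries for the immunoproteasome genes, PA28 genes and the constitutive proteolytic subunits; circles, squares and diamonds are replicates 1, 2 and 3, and lines are group means. KO points of *Psmb8*, *Psmb9*, *Psmb10*, *Psme1* and *Psme2* lie above all their WT points, those of *Psme3* below, and those of *Psmb5*, *Psmb6* and *Psmb7* overlap.

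The PA28 genes split: the interferon-induced pair rose, and the nuclear form fell. *Psme1* (PA28α) was at 9.17, 9.73 and 9.13 CPM in WT1 to WT3 and 18.2, 20.1 and 20.1 CPM in KO1 to KO3. It was about doubled, with little spread within either genotype (LFC 1.06, SE 0.09, adjusted p = 1.14e-05). *Psme2* (PA28β), whose product forms a ring with that of *Psme1*, was at 7.43, 8.65 and 7.61 CPM in WT1 to WT3 and 10.8, 11.7 and 11.2 CPM in KO1 to KO3, and every KO library was higher (LFC 0.51, SE 0.11, adjusted p = 0.00277). Reads of *Psme2* could be shared with its near-identical copy *Psme2b*, which had 20 to 31 counts in WT and 46 to 52 in KO libraries against at least 135 on *Psme2*. Per exon length, *Psme2* was at 0.962 ± 0.0460 of *Psme1* in WT and at 0.656 ± 0.0213 in KO testes (SD, n = 3). *Psme3* (PA28γ), the nuclear form, was at 135, 138 and 129 CPM in WT1 to WT3 and 124, 117 and 117 CPM in KO1 to KO3, lower in every KO library (LFC -0.17, SE 0.05, adjusted p = 0.0153). That call was lost without WT1, WT2, KO2 or KO3 (adjusted p from 0.0511 to 0.0720). *Psme3* lies 224 kb from *Mlx* on chromosome 11. Differences in the DNA linked to the targeted allele and the loss of MLX cannot be told apart there. On the same chromosome lie *Psmd3* (2391 kb from *Mlx*), *Psmb3* (3373 kb, called higher), *Psmc5* (5164 kb) and *Psmd12* (6387 kb). *Psmd11*, *Psmb6* and *Psme4* lie at least 20613 kb away. How far such linked DNA reaches was not tested.

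Most pan-leukocyte and macrophage markers were higher in KO testes, and T and B cell markers were not called. Of 8 pan-leukocyte markers, 7 were higher in KO testes, with a summed level of 14.2 to 16.9 CPM in WT and of 42.9, 34.1 and 38.5 in KO1 to KO3, and *Rac2* did not pass the test (LFC 0.60, adjusted p = 0.0574). *Ptprc* (CD45) was at 1.95, 1.21 and 2.48 CPM in WT and at 6.40, 3.98 and 3.71 CPM in KO libraries, highest in KO1 as *Psmb8* and *Psmb9* were. Of 10 macrophage markers 9 were higher and *Fcgr3* was lower. Their sums were 109 to 152 CPM in WT libraries and 204, 210.5 and 205 CPM in KO1 to KO3, so here KO1 was the lowest KO library. T cell markers summed to 3.69 to 6.43 CPM in WT and 4.48 to 8.51 in KO libraries and 0 of the 3 that could be tested were called. B cell markers summed to 5.80 to 7.05 and 7.02 to 7.94 CPM, and 0 of 2 were called. For both lists the count was also 0 at an unadjusted p under 0.05 in edgeR and in DESeq2. The part of such cells in the rise of *Psmb8*, *Psmb9*, *Psmb10*, *Psme1* and *Psme2* was not tested.

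Genes that act with the immunoproteasome were higher as well. All 5 genes of peptide transport and loading for MHC class I rose: the transporter genes *Tap1* (LFC 1.60) and *Tap2* (1.55), the light chain *B2m* (1.31), the peptidase *Erap1* (0.92) and the bridging factor *Tapbp* (0.41). *Tap1* was at 1.11, 1.53 and 1.24 CPM in WT1 to WT3 and 5.83, 2.99 and 2.86 CPM in KO1 to KO3, *B2m* at 28.9, 28.7 and 36.0 CPM in WT1 to WT3 and 111, 60.3 and 60.2 CPM in KO1 to KO3, and KO1 was the highest library for both. *Tap1* and *Psmb9* stand head to head, with 225 bases between their RefSeq starts, and 212 bases of *Psmb9* exons (15.7% of their length) overlap exons of *Tap1* on the opposite strand in GENCODE. Whether the counting used strand is not given in the sources used here, so reads of these 2 genes may not be separable there. *Psmb8* shares 186 exon bases with the antisense gene *Gm20496*, with the same limit. Of 7 genes that carry the interferon-γ signal, 6 were higher: the receptor chains *Ifngr1* (LFC 0.43) and *Ifngr2* (0.38), the kinases *Jak1* (0.62) and *Jak2* (0.70), and the factors *Irf1* (0.99) and *Irf8* (1.71). *Irf8* differed from *Psmb8* in its libraries, with 9.96 CPM in KO1 and 23.8 and 17.2 in KO2 and KO3. *Nlrc5*, a transactivator of MHC class I genes, was lower (14.8 ± 1.86 CPM in WT and 9.10 ± 0.936 in KO testes, SD, n = 3, LFC -0.70, SE 0.12, adjusted p = 0.000857).

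The 2 testis subunits fell. *Psma8*, the alpha subunit of the spermatoproteasome, was at 130.1, 134 and 136 CPM in WT1 to WT3 and 109, 107 and 119.7 CPM in KO1 to KO3, lower in every KO library (LFC -0.26, SE 0.05, adjusted p = 0.00303). Its counterpart *Psma7*, used in somatic cells, was at 21.6, 24.5 and 22.7 CPM in WT1 to WT3 and 29.6, 33.7 and 30.2 CPM in KO1 to KO3, higher in every KO library (LFC 0.44, SE 0.08, adjusted p = 0.00115). Thus the balance of the pair moved from both sides: per exon length *Psma8* was 4.06 ± 0.222 times *Psma7* in WT and 2.51 ± 0.280 times in KO testes (SD, n = 3), and it remained the more abundant. *Psme4* (PA200) had the most counts of any member, at 1135, 1145 and 1109 CPM in WT1 to WT3 and 1019.5, 909 and 932 CPM in KO1 to KO3, 18.2 to 18.9% of the members' summed CPM in WT and 16.8 to 17.8% in KO libraries. It was lower in every KO library (LFC -0.24, SE 0.05, adjusted p = 0.00404). With library size alone *Psma8* was not called, and *Psme4* still was. The LFC of *Psma8* (-0.26) and of *Psme4* (-0.24) may be set beside the median of -0.23 for round spermatid, -0.52 for elongating spermatid and -0.16 for spermatocyte markers; the part of cell makeup was not tested.

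Within-library ratios, which do not depend on how libraries are scaled, were computed for 6 pairs. On the log2 scale of counts, the difference between KO and WT means was 2.02 for *Psmb8* to *Psmb5*, 1.16 for *Psmb9* to *Psmb6*, 0.67 for *Psmb10* to *Psmb7* and 1.23 for *Psme1* to *Psme3*. It was -0.70 for *Psma8* to *Psma7* and -0.08 for *Psme4* to *Psme3*. In each of the 6 the genotypes did not overlap, and in all 3 littermate pairs the sign was the same. Single genes often separated too: every KO library lay above every WT library for 30.3% of all genes and below for 25.9%. Each ratio held a gene whose own CPM did not overlap, so its separation was not independent of that gene's. The exact permutation test gave p = 0.1 (two-sided, adjusted p = 0.1 over the 6), the smallest that 3 against 3 libraries allow. Within pairs the exact test gave p = 0.25, the smallest possible there. *Psme4* and *Psme3* were both lower in KO testes, and their ratio moved least.

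**Figure D3:**
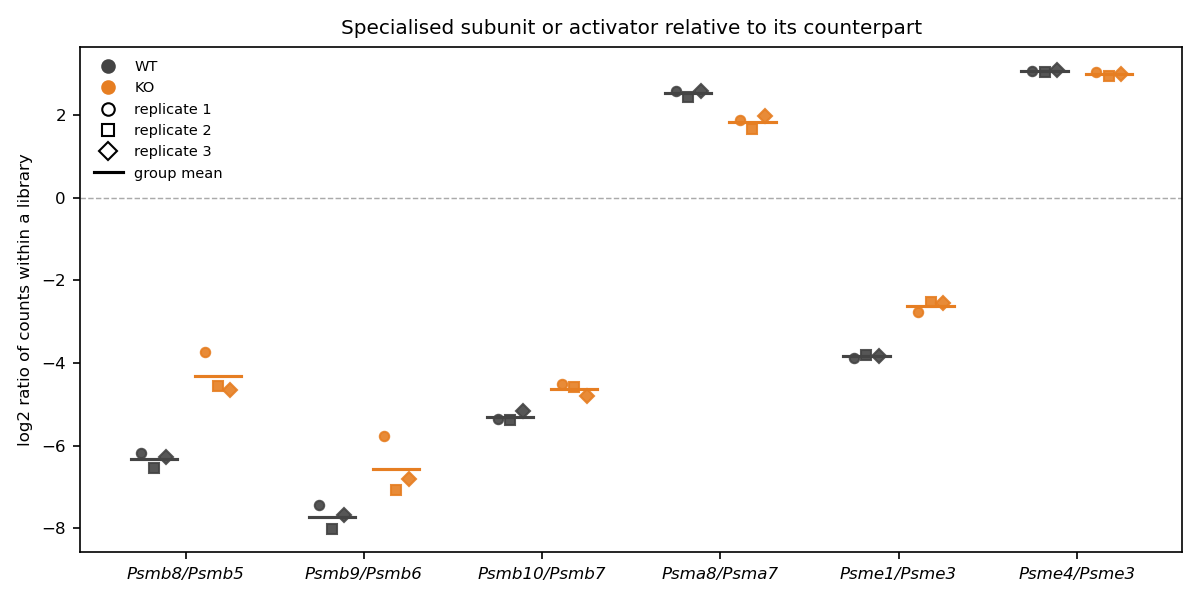
Log2 ratio of the counts of 2 genes within each library (vertical axis) for 6 pairs. The pairs set a specialised subunit or PA28 gene against its counterpart, and *Psme4* (PA200) against *Psme3*, an activator of another kind. Circles, squares and diamonds are replicates 1, 2 and 3, and lines are group means. The genotypes separate in every pair, by 2.02 for *Psmb8*/*Psmb5* and by only -0.08 for *Psme4*/*Psme3*.

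The constitutive core moved little, with a median LFC of 0.10 over its 14 genes against 0.03 over all genes: 5 were higher, 1 lower and 8 not called. Over all genes 24.8% were higher and 20.6% lower. The summed level of the 14 core genes was 1098 to 1131 CPM in WT and 1092 to 1101 CPM in KO libraries. Among the alpha subunits, *Psma7* (above) and *Psma2* were higher. *Psma2* was at 30.3, 31.3 and 28.8 CPM in WT1 to WT3 and 35.3, 37.0 and 36.5 CPM in KO1 to KO3, without overlap (LFC 0.27, SE 0.06, adjusted p = 0.00552). *Psma6*, the most abundant alpha subunit gene per length, was instead lower, at 342, 362 and 360.2 CPM in WT1 to WT3 and 302, 296 and 316 CPM in KO1 to KO3 (LFC -0.22, SE 0.05, adjusted p = 0.00387). The other alpha genes *Psma1*, *Psma3*, *Psma4* and *Psma5* had an LFC of 0.03 to 0.12 and were not called.

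Among the structural beta subunits 3 of 4 were higher, and 0 of the 7 constitutive beta genes were lower, at an adjusted or unadjusted p under 0.05, in edgeR or DESeq2. *Psmb2* was at 27.4, 27.8 and 25.8 CPM in WT1 to WT3 and 32.6, 31.6 and 32.5 CPM in KO1 to KO3, higher in every KO library (LFC 0.26, SE 0.07, adjusted p = 0.00785). *Psmb3* was at 25.9, 26.9 and 27.1 CPM in WT1 to WT3 and 29.7, 32.3 and 31.9 CPM in KO1 to KO3, also without overlap (LFC 0.23, SE 0.07, adjusted p = 0.0153). *Psmb1* was at 53.9, 48.9 and 46.6 CPM in WT1 to WT3 and 55.3, 57.8 and 55.9 CPM in KO1 to KO3, where WT1 came close to the KO range (LFC 0.18, SE 0.06, adjusted p = 0.0390). *Psmb4* lay above WT in every KO library and was not called (LFC 0.10, SE 0.05, adjusted p = 0.105). Of the 6 core calls, 2 were less stable than the rest: *Psmb1* was called in 7 and *Psmb3* in 10 of 14 alternatives, against 13 for *Psma2*, *Psma6* and *Psmb2* and 14 for *Psma7*. *Psmb1* was not called without WT2, WT3, KO2 or KO3 (adjusted p from 0.0736 to 0.159), and *Psmb3* not without WT1 or KO2 (0.0599 and 0.0522). With DESeq2, 3 of the 14 genes were higher, without *Psmb1* (adjusted p = 0.149) and *Psmb3* (0.0844). With its littermate block 1 was higher, *Psma7*, and *Psma2* (adjusted p = 0.0968), *Psmb2* (0.138), *Psmb3* (0.199) and *Psmb1* (0.259) were not called. *Psmb11*, the thymus subunit, was too low to test (counts of 6, 1 and 3 in WT1 to WT3, and of 5, 2 and 2 in KO1 to KO3).

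The 19S regulator genes were level or lower in KO testes. By edgeR's quasi-likelihood test 5 of the 17 were lower, 12 not called and 0 higher, where 20.6% of all genes were lower and 24.8% higher. None of the 17 was higher at an unadjusted p under 0.05 either, or by DESeq2. The median LFC of the 17 was -0.05, against 0.03 over all genes. Their summed level was 3012 to 3177 CPM in WT and 2755 to 2888 CPM in KO libraries. Of the ATPases, *Psmc3* was at 678, 702 and 672 CPM in WT1 to WT3 and 603, 549 and 548 CPM in KO1 to KO3, and was the member with the highest level per length in both genotypes (LFC -0.27, SE 0.05, adjusted p = 0.00185). It shares 215 exon bases with *Slc39a13* on the opposite strand. *Psmc2* was at 374, 464 and 442 CPM in WT1 to WT3 and 378, 365 and 368 CPM in KO1 to KO3, where WT1 lay inside the KO range although the test called it lower (LFC -0.21, SE 0.07, adjusted p = 0.0347). The call of *Psmc2* was lost without WT2, WT3, KO2 or KO3 (adjusted p from 0.0880 to 0.165). The other ATPases *Psmc1*, *Psmc4*, *Psmc5* and *Psmc6* had an LFC of -0.08 to 0.02.

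Of the 11 non-ATPase subunits, 3 were called. *Psmd8* was at 318, 332 and 329.7 CPM in WT1 to WT3 and 298, 281 and 279.9 CPM in KO1 to KO3, lower in every KO library (LFC -0.19, SE 0.05, adjusted p = 0.00743). *Psmd13* was at 98.3, 104 and 97.6 CPM in WT1 to WT3 and 87.6, 89.9 and 91.4 CPM in KO1 to KO3, likewise lower, with 342 of its exon bases shared with *Sirt3* on the opposite strand (LFC -0.16, SE 0.05, adjusted p = 0.0204). *Psmd2*, the scaffold that binds ubiquitin-like domains, was at 574, 611 and 602 CPM in WT1 to WT3 and 564, 532 and 536 CPM in KO1 to KO3, just past the threshold (LFC -0.13, SE 0.05, adjusted p = 0.0488). *Psmd2* kept its call in 4 of 14 alternatives, lost it without WT1, WT2, WT3, KO2 or KO3 (adjusted p from 0.0601 to 0.175), and its adjusted p was 0.117 when edgeR blocked on littermates. *Psmd13* was not called without WT2 or KO2 (adjusted p = 0.0947 and 0.0618), nor when DESeq2 blocked on littermates (0.0743). The other 8, including the deubiquitinase gene *Psmd14* (LFC 0.13) and the ubiquitin receptor gene *Psmd4* (-0.01), were not called. Without WT2 or KO2 2, and without WT3 or KO3 3, of the 17 were lower. Under library size alone 5 of the 17 were higher and 1, *Psmc3*, lower, so the direction of this group depended on the scaling.

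Of the factors that assemble or restrain the complex, PI31 changed most. *Psmf1* was at 363, 379 and 389 CPM in WT1 to WT3 and 303, 274 and 277 CPM in KO1 to KO3, lower in every KO library and the largest fall of any member (LFC -0.40, SE 0.05, adjusted p = 0.000192). The chaperone gene *Psmd5* (S5b), which binds the base of the 19S regulator, was at 18.7, 19.5 and 17.7 CPM in WT1 to WT3 and 21.0, 26.2 and 21.0 CPM in KO1 to KO3, higher in every KO library (LFC 0.29, SE 0.10, adjusted p = 0.0332). That call was lost without WT1, WT2, WT3 or KO2 (adjusted p from 0.0569 to 0.138), with DESeq2 (0.0793), and when DESeq2 blocked on littermates (0.166). *Psmd9* (LFC -0.03) and *Psmd10* (0.09), the other chaperones of the base, were not called, nor were *Psmg1* to *Psmg4* (LFC 0.00 to 0.26), even at an unadjusted p under 0.05 in edgeR or DESeq2. *Pomp*, the maturation factor of the core, was higher (30.8 ± 1.58 CPM in WT and 36.2 ± 1.49 in KO testes, SD, n = 3, LFC 0.24, SE 0.07, adjusted p = 0.0140).

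The members differed far more in level than between genotypes, and the direction of their calls went with their level. As RPKM (CPM per kilobase of exon), alpha subunit genes of the constitutive core spanned 10.4 to 309 in WT testes and beta subunit genes 14.5 to 151, although each occurs the same number of times in the core. These spans depend on the exon length used. The low ends were *Psma2* and *Psmb1*, with 2911 and 3427 exon bases. By mean CPM in WT testes, *Psma7* (23.0) and *Psmb3* (26.7) were the lowest instead. *Psmc3* (335 RPKM), *Psma6* (309), *Psmc2* (239), *Psmd2* (201) and *Psme4* (174) were the 5 highest in WT, and all 5 were called lower. Members called higher had 0.396 to 34.8 RPKM in WT, and members called lower 50.2 to 335, without overlap. At a mean of over 100 CPM, a level chosen after the values were seen, 9 of 13 members (69.2%) were lower and 0 higher (also 0 at an unadjusted p under 0.05 in edgeR and DESeq2), and at or under it 1 of 34 was lower and 11 (32.4%) higher. Genes in general were divided alike: 65.0% of the 2472 genes above 100 CPM were lower and 5.38% higher, and 11.6% and 28.8% of the 12168 others.

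**Figure D4:**
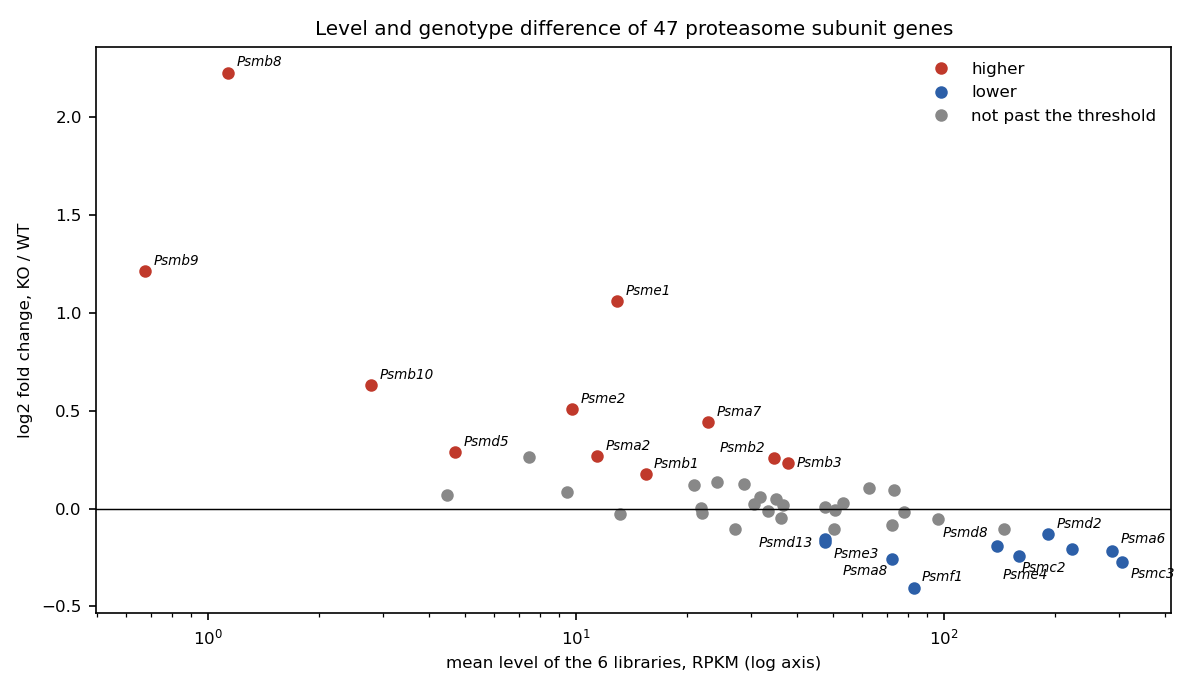
Mean level over the 6 libraries (RPKM, horizontal log axis) against LFC (KO over WT, vertical axis, log2) for the 47 members tested, coloured by call. Red points (higher) lie at the left, from *Psmb9* to *Psmb3*, and blue points (lower) at the right, from *Psmd13* and *Psme3* to *Psmc3*.

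Genes whose products work with the proteasome moved in both directions. Of the 10 proteasome-bound factors measured, 3 were higher, the deubiquitinase gene *Usp14* (LFC 0.18), *Pomp* (0.24) and *Zfand5* (0.25), which stimulates degradation, and 1 was lower, the ubiquitin ligase gene *Ube3c* (-0.30). Of 7 shuttle factors, which carry ubiquitinated proteins to the 19S regulator, *Ubqln2* was higher (0.46) and 3 were lower: *Rad23b* (-0.27), and the testis genes *Ubqlnl* (-0.59) and *Ddi1* (-0.48). *Ubqlnl* was at 415, 442 and 431 CPM in WT1 to WT3 and 300.2, 288 and 265 CPM in KO1 to KO3, the largest fall in this list. Of 6 regulators of proteasome genes, *Nfe2l1*, which drives them when proteasome activity is low, was higher (86.9 ± 4.16 CPM in WT and 118 ± 7.76 in KO testes, SD, n = 3, LFC 0.44, SE 0.06, adjusted p = 0.000231). *Nfe2l2* was also higher, at 22.2, 23.2 and 27.3 CPM in WT1 to WT3 and 43.0, 51.8 and 48.5 CPM in KO1 to KO3, about doubled and without overlap (LFC 0.98, SE 0.09, adjusted p = 2.30e-05). *Ngly1* (-0.34), which processes NFE2L1, and *Akirin2* (-0.20), which brings proteasomes into the nucleus, were lower, and *Vcp* (LFC 0.12, SE 0.04, adjusted p = 0.0503) and *Nfe2l3* (-0.04) were not called. The 5 members whose promoters held the antioxidant response element were all among those not called. Of the members with a promoter to search, 9 were called higher, 8 lower and 22 not called. *Psma8*, *Psmb1*, *Psmb2* and *Psmc3* were called but had no promoter to search. Whether *Nfe2l1* or *Nfe2l2* had a part in any of these differences was not tested.

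**Figure D5:**
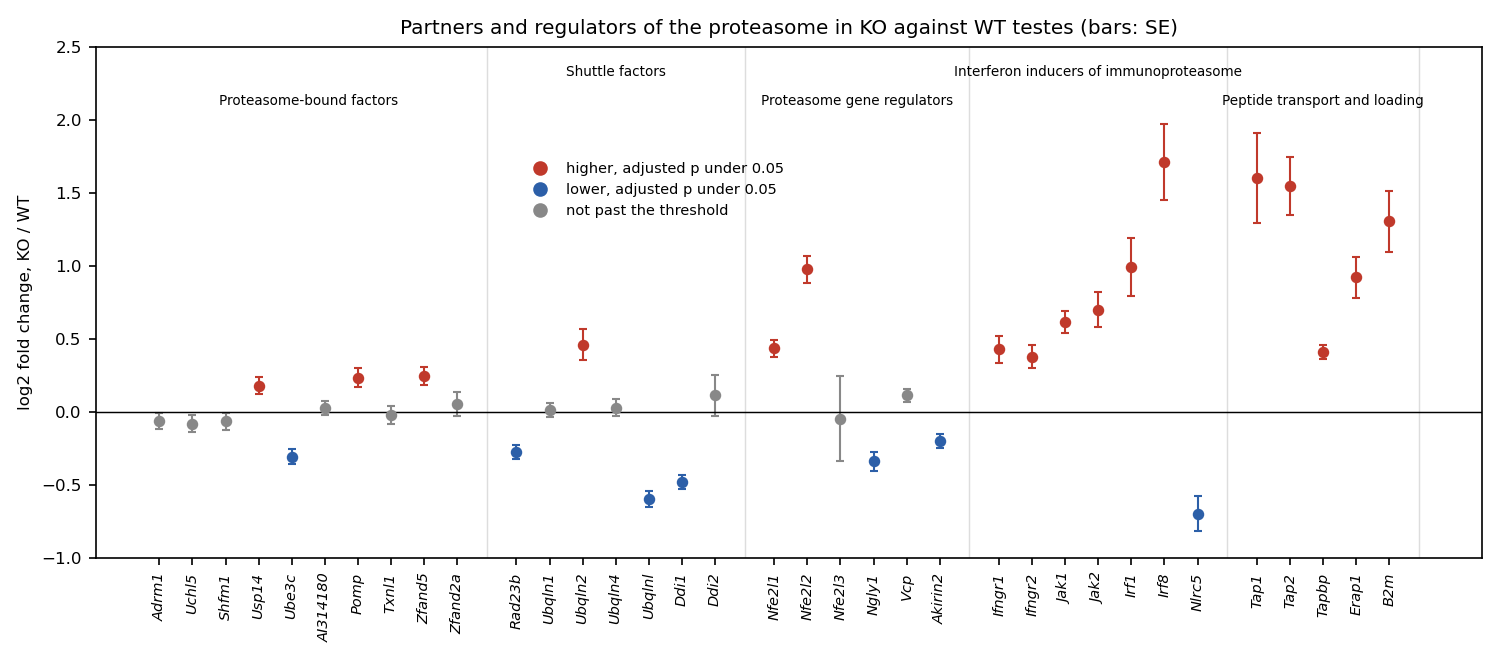
LFC (KO over WT, vertical axis, log2) with its SE for genes that work with the proteasome, in 5 lists along the horizontal axis; red points were called higher, blue lower and grey neither at an adjusted p of at most 0.05. The 5 peptide transport genes and 6 of 7 interferon pathway genes are red, and 3 of 7 shuttle factors are blue.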

How the data were processed

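Total RNA of whole testes, extracted with Trizol, was sequenced with paired ends. The authors aligned reads to mm10 with TopHat and deposited whole-number read counts per gene symbol, without normalization. The counting tool, annotation and strand setting are not given in the sources used here. The same table holds 6 columns of the authors' own comparison (mean level, log2 fold change with its standard error, statistic, p-value and adjusted value), which were not used. The 16 ChIP-seq samples were not analysed here.

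Of 17933 rows, 2 repeated another and were used once. Counts were tested with edgeR 4.0.16 in R 4.3.3 (filterByExpr with a minimum count of 10, TMM factors, quasi-likelihood test, genotype as the only term, Benjamini-Hochberg adjustment over 14640 genes, threshold 0.05). All p-values are two-sided. CPM uses TMM-scaled library sizes, and RPKM divides it by the union of GENCODE exons. The filter makes the fit silent on genes with few counts, and TMM sets the level that counts as unchanged. Ratios used log2(count + 0.5) and exact permutation tests. Depth was 16674678 to 19742726 counts per library, and 3 counts correspond to 0.155 to 0.191 CPM, for counting error only. Sample titles and the study's methods make same-numbered libraries littermate pairs. Deviations from group means correlated at 0.148, 0.0427 and 0.122 within pairs and at most at 0.0361 otherwise. No 2 libraries were duplicates.

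All members are accounted for. Values by library are given for the proteolytic, testis and activator genes with their counterparts, and for up to 3 called members in each direction in each other class. Pathway genes past the threshold are named, apart from a few genes that are not reported here. Members, lists and tests were chosen with earlier results of these data known. DESeq2 1.42.0, other scalings and filters, the pair as a block and each library left out were alternatives. The code was tested on simulated data. Promoters are from the RefSeq table for GRCm38.p6.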

Additional observations from a re-analysis of the deposited data

How the results depend on the processing

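Each count was recomputed under 14 alternatives, and each ratio with a pseudocount of 2, within pairs and without each library. Library size alone, which raised the median LFC of all genes by 0.14, gave 21 members higher and 3 lower, 9 constitutive core genes higher and 0 lower, 1 testis subunit lower, and 5 genes of the 19S regulator higher and 1 lower. There the LFC of 12 members turned from negative to positive. Of these, *Psmd4* (0.12, adjusted p = 0.0212) and *Psmd7* (0.13, adjusted p = 0.0468) were called higher, and the other 10, among them *Psmb6* (0.036), *Psmb7* (0.087) and *Psmd2* (0.0085), were not called. DESeq2 gave 7 members and 3 constitutive core genes higher. The replicate block in DESeq2 gave 9 members lower, without *Psmd13*, and 4 higher, 1 of them in the constitutive core and 1, *Psmb8*, in the immunoproteasome. The replicate block in edgeR moved no count of calls by over 1.5 times and changed the call of no member other than *Psmd2*. Without 1 library, members lower ranged from 6 to 13, 19S genes lower from 2 to 7, and constitutive core genes from 3 to 6 higher and from 1 to 2 lower. The fewest lower members were found without WT2 or KO2, 3 core genes were higher without KO2, and 2 were lower without KO1, where *Psmb6* joined *Psma6*. *Psma7*, *Psmb8*, *Psme1* and *Psme2* were higher and *Psmc3*, *Psme4* and *Psmf1* lower in all 14. The cause of these changes was not tested, other than that leaving out a library leaves fewer samples. Depth limits *Psmb8*, *Psmb9* and *Psmb11* most, which had at most 13 counts in a WT library.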
